A study of Mus musculus with 12 samples.

Results

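Fibroblast growth factor (FGF) signalling genes were followed across healing skin wounds of diabetic mice. The set holds 10 genes, which are the 6 secreted ligands Fgf1, Fgf2, Fgf7, Fgf10, Fgf18 and Fgf22 and the 4 receptors Fgfr1, Fgfr2, Fgfr3 and Fgfr4. They were taken by gene symbol from the 54232 genes listed in each count file, and all 10 were among the 18618 genes with enough reads to be tested. RNA came from 12 dorsal wounds of male C57BLKS/J mice of the genotype Lepr (db/db), which lack working leptin receptor and become obese and diabetic. Every group carried that genotype and a full-thickness 6 mm punch wound, and every wound was collected on day 10, at a labelled age of 12.5 weeks. The TD group had Tegaderm, a transparent film dressing, as the only cover (n = 5). In the Strain group a patch stretched the wound by about 30% (n = 4), and in the No Strain group the patch imposed no strain (n = 3). No lean, unwounded or uncovered skin entered, so every comparison is between dressings on diabetic wounds. Whether wounds shared a mouse or tissue was pooled is not stated in the labels, so the p-values measure the spread between these samples, which may be partly technical.

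FGF ligands are secreted proteins that bind receptor tyrosine kinases together with heparan sulfate chains, and the receptors pass the signal to the RAS-MAP kinase pathway through the docking protein FRS2. In skin, Fgf7 (keratinocyte growth factor), Fgf10 and Fgf22 act on an epithelial splice form of Fgfr2 in keratinocytes, whereas Fgf2 is best known as a growth factor for endothelial cells and fibroblasts. Gene counts add all splice forms together, so the epithelial and mesenchymal forms of Fgfr2 are not resolved in these data.

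The RefSeq promoter table (build GRCm38.p6) matched 8 of the 10 genes, all except Fgf1 and Fgfr1. The 250 bases before the RefSeq start are shown for 3 genes on which the comparisons turn. Fgf7 is shown as the only one of the 10 with a higher call in any comparison, Fgf18 as the one with the largest fall, and Fgfr2 as the only receptor with a call. The Fgf7 window is chr2:126034408-126034657 (plus strand), the Fgf18 window is chr11:33147401-33147650 (minus strand) and the Fgfr2 window is chr7:130266809-130267058 (minus strand). Each is written 5′ to 3′ on the gene's own strand, and capitals mark a match to a searched motif.
Fgf7: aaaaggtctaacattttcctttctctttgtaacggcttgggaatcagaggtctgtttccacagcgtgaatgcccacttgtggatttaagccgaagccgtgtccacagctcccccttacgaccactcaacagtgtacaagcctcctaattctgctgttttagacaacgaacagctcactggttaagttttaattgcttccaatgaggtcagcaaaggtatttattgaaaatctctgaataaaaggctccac
Fgf18: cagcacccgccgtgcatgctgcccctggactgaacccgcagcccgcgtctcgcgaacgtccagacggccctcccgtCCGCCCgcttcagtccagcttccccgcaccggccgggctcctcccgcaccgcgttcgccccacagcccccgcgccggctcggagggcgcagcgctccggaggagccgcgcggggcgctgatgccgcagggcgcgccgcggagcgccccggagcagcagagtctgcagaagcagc
Fgfr2: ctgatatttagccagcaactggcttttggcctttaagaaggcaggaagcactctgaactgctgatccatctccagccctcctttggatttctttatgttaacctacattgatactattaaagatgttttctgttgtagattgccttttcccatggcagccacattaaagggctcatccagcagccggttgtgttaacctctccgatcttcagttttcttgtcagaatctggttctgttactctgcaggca

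These windows differed in base composition: G and C made up 43.6% of the Fgf7 window, 77.2% of the Fgf18 window and 44.0% of the Fgfr2 window. Fgf18 lay at the 97.4th percentile of GC content among the 32851 RefSeq windows of the same length, whereas Fgf7 and Fgfr2 lay at the 20.1st and 21.1st. Both strands were searched for the TATA box TATAAA, for the GC box with the letters GGGCGG, for the AP-1 motif TGANTCA, for the TEAD motif GGAATG and for the E-box with the letters CAGCTG. These motifs occur in 12.4%, 32.7%, 6.75%, 12.6% and 13.0% of all windows, respectively. The only match in the 3 windows was 1 GC box in Fgf18, on the opposite strand, starting at position -174, where -1 is the base just before the start. A match describes letters only.

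Libraries held between 20354677 and 25059371 gene counts, so that 3 counts correspond to at most 0.147 CPM (counts scaled to a common library total). The labelled tissue was borne out by its markers: summed CPM of 12 dermal fibroblast genes ranged from 46315 to 80872 and that of 8 basal keratinocyte genes from 4537 to 11126 over the 12 libraries. Other tissues in the biopsies moved with the dressing. Skeletal muscle markers summed to 7207 to 17822 CPM in TD, 3426 to 6502 in Strain and 5064 to 10920 in No Strain, with 10 of 15 tested genes lower in Strain than in TD and 3 of 15 lower in No Strain. Adipocyte markers summed to 2564 to 4947, 1731 to 2622 and 1569 to 2062 CPM in the same order, with 8 and 11 of 12 genes lower than in TD. Neutrophil markers summed to 548 to 1739, 996 to 8892 and 2664 to 5396 CPM, with 10 and 9 of 12 genes higher than in TD. Endothelial markers were higher for 6 of 10 genes in either patch group (514 to 641, 641 to 919 and 709 to 823 CPM), and T cell markers for 5 and 3 of 10. Wound-activated keratinocyte markers summed to 3857 ± 1005 CPM in TD (SD, n = 5), 10137 ± 6883 in Strain (SD, n = 4) and 10040 ± 5510 in No Strain (SD, n = 3), with 3 and 1 of 8 genes higher. Hair follicle markers summed to 31.0 to 222, 17.2 to 51.7 and 14.6 to 36.7 CPM, with 2 of 12 tested genes lower in either patch group. The hair keratin Krt31 was at 0 in both patch groups and Krt33a in No Strain, and no gene of the other lists named here was at 0 in a whole group. The sample titles carry numbers of unstated meaning that are lower in every TD sample than in any patch sample. Any order they record and the dressing therefore cannot be told apart in a comparison with TD.

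Levels of different genes were compared as CPM per kilobase of exon. Fgfr1, the receptor best known from fibroblasts and other mesenchymal cells, was the most abundant of the 10 in each group, at 34.1 ± 4.63 CPM per kb (SD, n = 5) in TD, with mean levels of 27.4 in Strain and 28.8 in No Strain. Its libraries did not overlap those of the next gene in any group. In TD the next were Fgfr3 at a mean of 8.49, Fgfr2 at 7.17, Fgf7 at 5.90 and Fgf18 at 5.62 CPM per kb, followed by Fgf1 at 4.23, Fgf2 at 3.31 and Fgfr4 at 2.86. Neighbours in that run overlapped between libraries, so their order is within the spread, although Fgfr3 was above Fgfr2 within each single library of TD (5 of 5), Strain (4 of 4) and No Strain (3 of 3). The lowest levels in TD were those of Fgf22 (1.33) and Fgf10 (1.02), with a gap between Fgfr4 and Fgf22 that no library crossed.

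Under the patches the order differed in its middle. Fgf7 stood second, at a mean of 8.94 CPM per kb in Strain and 11.3 in No Strain, above Fgfr3 (7.81 and 5.81) and Fgfr2 (4.73 and 3.48). Fgf18, next after Fgf7 in TD, stood below Fgf2 in Strain at 1.64 CPM per kb and just above Fgf2 in No Strain at 1.99 CPM per kb. Libraries overlapped between all neighbours below Fgfr1 in No Strain, and in Strain between all but Fgfr2 and Fgf1 (2.54 CPM per kb). These ranks rest on exon length: with the length of the longest transcript in its place, 5 of the 10 genes kept their rank over all 12 libraries.

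**Figure D1:**
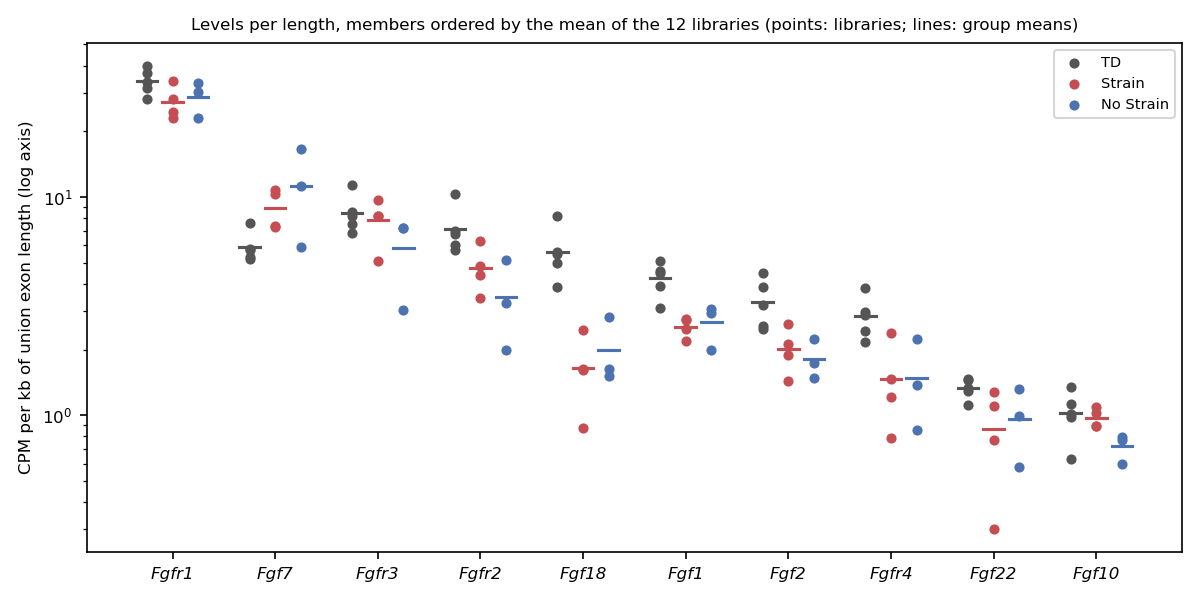
Level of the 10 FGF genes in each group, as TMM-scaled CPM per kilobase of union exon length on a log axis. Points are libraries and marks are group means, and Fgfr1 lies above every other gene in all 3 groups, with Fgf10 and Fgf22 the lowest by their means.

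Fgf18, a ligand that signals mainly through receptors of the Fgfr3 type and is known from the hair cycle and from cartilage, was lower under either patch than under film. The gene lies on the minus strand of chr11:33117430-33147400 (GRCm38). Its level in the 5 TD libraries was 6.66, 4.60, 9.69, 6.50 and 5.92 CPM. In the 4 Strain libraries it was 1.94, 1.04, 1.91 and 2.92 CPM, and in the 3 No Strain libraries 1.94, 1.80 and 3.35 CPM. Every TD library was above every patch library, and the patch groups overlapped each other. Means were 6.67 ± 1.87 (SD, n = 5), 1.95 ± 0.772 (SD, n = 4) and 2.36 ± 0.855 CPM (SD, n = 3), so that TD was 3.42-fold above Strain and 2.83-fold above No Strain. In edgeR's quasi-likelihood test the log2 fold change was -1.77 (SE 0.309, adjusted p = 0.00795) in Strain and -1.50 (SE 0.337, adjusted p = 0.0132) in No Strain, each against TD. Both comparisons share the TD libraries, so they are not independent, here and for every gene below.

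The fall of Fgf18 accompanied lower skeletal muscle, adipocyte and hair follicle markers. The median log2 fold change of the 12 tested hair follicle genes was -1.42 in Strain and -2.15 in No Strain, with 2 of 12 called lower in each. Within groups, after subtracting each group's mean, Fgf18 ran against the hair follicle list (r = -0.48). Its r was 0.40 with the muscle list and 0.15 with the adipocyte list. With the mean of the muscle list as a covariate, the value for Strain against TD was -1.15 (adjusted p = 0.496), and with the adipocyte list it was -1.59 (adjusted p = 0.174). For No Strain against TD the call held with the muscle list but not with the adipocyte list (-1.18, adjusted p = 0.554), nor without No Strain library 1 (-1.37, adjusted p = 0.0553). On mean log2 CPM the muscle list was at least 7.44 in TD and at most 7.38 in Strain. The adipocyte list was at least 6.20 in TD and at most 5.45 in No Strain. Calls over all genes went from 2349 to 2 with muscle in Strain, and from 3305 to 98 with adipocyte in No Strain. The fits with muscle in Strain and with adipocyte in No Strain therefore cannot separate tissue from dressing, here and for every gene below. The muscle list in No Strain (7.17 to 8.16) overlapped TD, and the adipocyte list in Strain (up to 6.33) overlapped TD. In these fits 1608 of 3305 calls remained with muscle in No Strain, and 80 of 2349 with adipocyte in Strain. That overlap was partial, so these fits separate tissue from dressing only in part. In a bulk sample, fewer cells of a type and less RNA per cell cannot be told apart, and the part of these tissues in the result was not tested further.

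Fgf1, a ligand without a classical secretion signal that can bind all 4 receptors, also fell under either patch. It lies on the minus strand of chr18:38838673-38929472 (GRCm38). TD libraries held 24.5, 21.4, 27.8, 25.1 and 16.9 CPM. Strain libraries held 15.1, 12.0, 13.5 and 14.9 CPM, and No Strain libraries 16.8, 10.9 and 16.0 CPM. The groups did not overlap with TD, although the lowest TD library and the highest No Strain library were 16.88 and 16.79 CPM. The log2 fold change against TD was -0.74 (SE 0.160, adjusted p = 0.0161) in Strain and -0.67 (SE 0.176, adjusted p = 0.0250) in No Strain. With the muscle list as a covariate these values were -0.13 (adjusted p = 0.877) and -0.44 (adjusted p = 0.0945). With the adipocyte list they were -0.44 (adjusted p = 0.408) and -0.16 (adjusted p = 0.886). The call in No Strain was also lost without library 2 of that group (-0.50, adjusted p = 0.0698) or library 3 (-0.74, adjusted p = 0.0534), and the title letter as a covariate ended both calls (adjusted p = 0.0579 in Strain and 0.0547 in No Strain).

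Fgf2, the basic FGF of endothelial and fibroblast growth (plus strand of chr3:37348346-37410108), was at 21.6, 26.1, 16.9, 17.4 and 30.3 CPM in TD. It was at 14.5, 12.8, 9.73 and 17.8 CPM in Strain and at 10.04, 11.8 and 15.1 CPM in No Strain. All 3 No Strain libraries were below all TD libraries, whereas the highest Strain library lay above the lowest TD libraries. The fall passed the test in No Strain (log2 fold change -0.87, SE 0.241, adjusted p = 0.0311). In Strain the value was -0.71 (SE 0.218, adjusted p = 0.0528), and it passed the test without Strain library 4 (-0.87, adjusted p = 0.0396), with library totals (-0.74, adjusted p = 0.0413), with DESeq2 and with the adipocyte list as a covariate (-1.41, adjusted p = 0.0264). The muscle list gave -1.26 (adjusted p = 0.336). The call in No Strain held with the muscle list, and with the adipocyte list the value was -2.07 (adjusted p = 0.0333). It was lost with no filter on low counts (adjusted p = 0.0517) and without TD library 2 (adjusted p = 0.0605), TD library 5 (0.0524), No Strain library 1 (0.116) or No Strain library 2 (0.0819). Fgf2 shares 895 exon bases with its neighbours Nudt6, on the opposite strand, and Gm43439, and the library kit named in the labels does not mark strand. Nudt6 was at 2.40 ± 0.370 CPM in TD (SD, n = 5), 2.21 ± 0.205 in Strain (SD, n = 4) and 2.19 ± 0.411 in No Strain (SD, n = 3), and Gm43439 had no counts.

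Fgf7, made by dermal fibroblasts and some immune cells and acting on keratinocytes, was the only one of the 10 genes whose mean was higher under both patches than under film. It lies on the plus strand of chr2:126034658-126091185. TD libraries held 24.6, 18.5, 16.8, 17.2 and 18.8 CPM. Strain libraries held 23.7, 33.7, 24.0 and 34.8 CPM, and No Strain libraries 19.1, 36.5 and 54.0 CPM. Values in No Strain ranged most widely, and 2 Strain libraries and 1 No Strain library lay below the highest TD library. The rise passed the test in No Strain (log2 fold change 0.93, SE 0.269, adjusted p = 0.0358, a 1.91-fold higher mean). In Strain the value was 0.60 (SE 0.251, adjusted p = 0.137). The call in No Strain leaned on single libraries: it was 0.54 (adjusted p = 0.195) without No Strain library 3, and it also missed the threshold without No Strain library 2 or any one of TD libraries 2 to 5 (adjusted p from 0.0606 to 0.0765). It was 0.56 (adjusted p = 0.111) with the title letter and 0.30 (adjusted p = 0.870) with the adipocyte list as a covariate. The muscle list (adjusted p = 0.0806), limma-voom (0.0617), no filter on low counts (0.0881) and a fit of these 2 groups only (0.0514) also ended the call, which was thus lost in 12 of 23 alternatives.

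Fgf10 and Fgf22, the other ligands of the epithelial Fgfr2 form, were scarce and had no call. Fgf10 lies at chr13:118669791-118792115 and Fgf22 at chr10:79755076-79758596, both on the plus strand. Fgf10 ranged from 2.89 to 6.22 CPM in TD, from 4.09 to 5.02 in Strain and from 2.75 to 3.67 in No Strain, and the patch groups did not overlap. Its log2 fold change was 0.43 for Strain against No Strain (SE 0.224, adjusted p = 0.872), and against TD it was -0.07 in Strain (SE 0.193, adjusted p = 0.846) and -0.50 in No Strain (SE 0.215, adjusted p = 0.131). Fgf22 ranged from 2.51 to 3.29 CPM in TD, from 0.675 to 2.88 in Strain and from 1.30 to 2.97 in No Strain. Its libraries held 15 to 82 counts, and its values varied more between libraries under the patches (SD 0.971 CPM in Strain, n = 4, and 0.836 in No Strain, n = 3) than in TD (SD 0.318, n = 5). An exon of Fgf22 shares 82 bases with Rnf126 on the opposite strand, which was at 51.4 ± 3.49 CPM in TD (SD, n = 5), so an unknown part of the Fgf22 reads may be from Rnf126.

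The make-up of the 6 ligands was set side by side, with no test. As a share of the summed ligand level per kilobase, Fgf7 held 27.6% ± 4.08 (SD, n = 5) in TD, 52.5% ± 7.45 (SD, n = 4) in Strain and 55.9% ± 12.0 (SD, n = 3) in No Strain. The highest TD share was 33.0%, and the lowest patch shares were 45.5% in Strain and 42.1% in No Strain. Fgf18 went the other way, from 26.0% ± 5.41 (SD, n = 5) in TD to 9.56% ± 2.97 (SD, n = 4) and 10.3% ± 1.74 (SD, n = 3). The summed level itself was 21.4 ± 1.79, 17.0 ± 2.31 and 19.4 ± 6.09 CPM per kb in the same order. Shares add to a whole, so a change in one ligand moves the others.

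**Figure D2:**
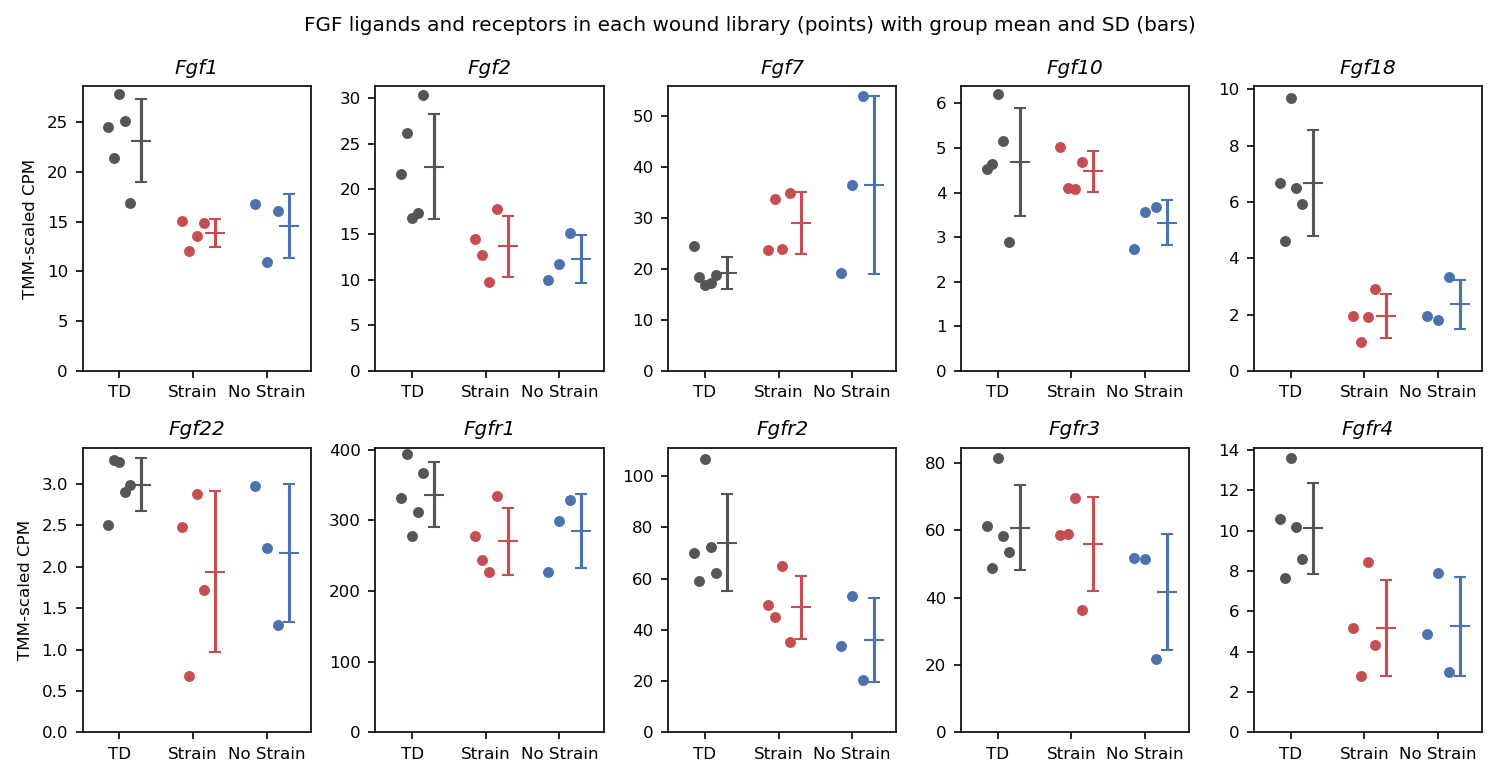
TMM-scaled CPM of each of the 10 FGF genes in every library, by group, with the group mean and SD and a linear axis for each gene. All TD libraries lie above all patch libraries for Fgf18 and Fgf1, and No Strain holds both the highest and the lowest Fgf7 value under a patch (54.0 and 19.1 CPM).

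Among the receptors, Fgfr2 alone passed a test. Fgfr2 is the receptor through which keratinocytes respond to Fgf7, Fgf10 and Fgf22, and its GENCODE model spans chr7:130162451-133123350 on the minus strand. TD libraries held 69.9, 59.2, 107, 72.2 and 62.1 CPM. Strain libraries held 49.7, 45.1, 65.0 and 35.4 CPM, and No Strain libraries 33.8, 53.3 and 20.6 CPM. No Strain lay wholly below TD, and 1 Strain library lay within the TD range. The log2 fold change was -1.04 for No Strain against TD (SE 0.302, adjusted p = 0.0362, a 2.06-fold lower mean) and -0.60 for Strain against TD (SE 0.269, adjusted p = 0.162).

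Basal keratinocyte markers were lower in part beside the fall of Fgfr2. Of the 8 basal keratinocyte genes, 4 passed the test as lower in No Strain and 2 in Strain, and 0 passed as higher in either. Mean levels of Krt15, Itgb4, Col17a1 and Lamb3 were below those of TD in both patch groups. Krt14 averaged 2629 ± 482 CPM in TD (SD, n = 5) and 3560 ± 1395 in No Strain (SD, n = 3), Itga6 126.02 ± 6.20 and 140.01 ± 25.2, and Trp63 128 ± 23.5 and 128 ± 34.6. For Krt14, Itga6 and Trp63 the No Strain libraries overlapped TD. The summed level of the 8 genes ranged from 5717 to 7473 CPM in TD, 4591 to 11126 in Strain and 4537 to 8463 in No Strain. All 8 genes were detected in each group. Krt5 and Krt14 weigh most in that sum. On mean log2 CPM, every No Strain library of this list was below every TD library, and Strain overlapped TD. The part of this list in the fall of Fgfr2 was not tested. With the adipocyte list as a covariate the Fgfr2 value for No Strain against TD turned to 0.30 (adjusted p = 0.792), and with the muscle list it was -0.99 (adjusted p = 0.129). The title letter (-0.94, adjusted p = 0.0913) and no filter on low counts (adjusted p = 0.107) ended the call as well. Left-out libraries also ended the call, namely TD library 1 (adjusted p = 0.0542), 3 (0.0691) or 4 (0.0590) and No Strain library 1 (0.111) or 3 (0.120). The exons of Fgfr2 in the GENCODE model share 314 bases with Ctbp2 on the same strand, a gene at 33.8 ± 2.76 CPM in TD (SD, n = 5) and at 40.3 ± 5.95 CPM in No Strain (SD, n = 3).

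Fgfr4, a receptor best known from liver (plus strand of chr13:55152640-55168759), was low, with 10.6, 7.64, 13.6, 10.2 and 8.59 CPM in TD. It was at 5.17, 2.79, 8.45 and 4.31 CPM in Strain and at 4.86, 7.89 and 3.02 CPM in No Strain. Only 1 library of each patch group reached into the TD range. The log2 fold change was -0.96 in Strain (SE 0.332, adjusted p = 0.0803) and -0.94 in No Strain (SE 0.367, adjusted p = 0.0972), each against TD. Neither passed the edgeR test. The value in Strain did without Strain library 3 (-1.32, adjusted p = 0.0249), and that in No Strain did without No Strain library 2 (-1.36, adjusted p = 0.0472). DESeq2 called both (adjusted p = 0.0273 and 0.0466), and with the adipocyte list as a covariate they were -0.10 (adjusted p = 0.914) and 0.57 (adjusted p = 0.688).

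Fgfr1 and Fgfr3 overlapped between all groups and had no call. Fgfr1 lies at chr8:25513654-25575718 and Fgfr3 at chr5:33721674-33737068, both on the plus strand. Fgfr1 ranged from 278 to 395 CPM in TD, from 226 to 334 in Strain and from 226 to 329 in No Strain, with log2 fold changes against TD of -0.32 (SE 0.146, adjusted p = 0.173) and -0.24 (SE 0.159, adjusted p = 0.318). Fgfr3, a receptor of keratinocytes and cartilage, ranged from 48.9 to 81.5 CPM in TD, from 36.3 to 69.7 in Strain and from 21.7 to 51.6 in No Strain. Its log2 fold changes against TD were -0.12 (SE 0.260, adjusted p = 0.799) and -0.55 (SE 0.289, adjusted p = 0.213). Summed over the 4 receptors, the level was 49.6 to 54.7 CPM per kb in TD, 38.0 to 43.6 in Strain and 34.8 to 44.8 in No Strain, with no overlap between film and patches. No test was run on this sum, which rests on the exon lengths used. Fgfr1 held most of that sum in each group, at 64.8% ± 7.91 (SD, n = 5), 66.0% ± 9.10 (SD, n = 4) and 72.8% ± 10.6 (SD, n = 3).

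Counted over the set, Strain against TD gave 0 genes higher and 2 lower (Fgf1 and Fgf18) of 10. Over all 18618 genes, 12.6% were called in that comparison, 6.20% higher and 6.41% lower. All Strain libraries lay on one side of all TD libraries for 2 of 10 genes, and for 14.6% of all genes. No Strain against TD gave 1 gene higher (Fgf7) and 4 lower (Fgf1, Fgf2, Fgf18 and Fgfr2) of 10, where 17.8% of all genes were called, 9.35% higher and 8.40% lower. Such separation was seen for 4 of 10 genes and for 26.7% of all genes. The log2 fold change was below 0 for 9 of 10 genes in either comparison, with a median of -0.61 in each, while the medians of all genes were 0.02 and 0.00.

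The count for No Strain against TD rested on few libraries. It fell from 5 to 3 without TD library 2, 3 or 4 or No Strain library 2, and to 2 without No Strain library 1 or 3. Fgf1 and Fgf18 remained called for Strain against TD in each of the 12 fits that left out a library. With DESeq2 in place of edgeR, 4 genes were called for Strain against TD, with Fgf2 (adjusted p = 0.0128) and Fgfr4 added.

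Strain against No Strain, in which both groups wore a patch, addresses the imposed strain itself. None of the 10 genes was called by edgeR, with a smallest adjusted p of 0.872, and 0 of 10 had an unadjusted p under 0.05. Of all genes 0% were called in this comparison, with 1045 at an unadjusted p under 0.05. DESeq2 called 29 genes in all and limma-voom 0, and neither called a member of the set. The largest differences were those of Fgfr2 (0.44, SE 0.308), Fgf10 (0.43, SE 0.224) and Fgfr3 (0.43, SE 0.299), each higher in Strain. Only Fgf10, 1 of 10 genes, had its 4 Strain libraries apart from its 3 No Strain libraries, as had 5.62% of all genes. The standard errors, from 0.165 to 0.392 on the log2 scale, limit how small a difference could have been seen.

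Each gene was also compared between each pair of groups by a two-sided exact permutation test of mean log2 CPM, which uses only the libraries of that pair. The smallest p that the group sizes allow is 0.00794 with 4 Strain and 5 TD libraries, 0.0179 with 3 No Strain and 5 TD libraries and 0.0286 between the patch groups. Fgf18 reached it in both comparisons with TD (exact p = 0.00794 and 0.0179), Fgfr2 reached it for No Strain against TD (exact p = 0.0179) and Fgf10 reached it between the patch groups (exact p = 0.0286). After adjustment over the 30 tests, 0 passed the threshold, and the smallest adjusted exact p was 0.0893.

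**Figure D3:**
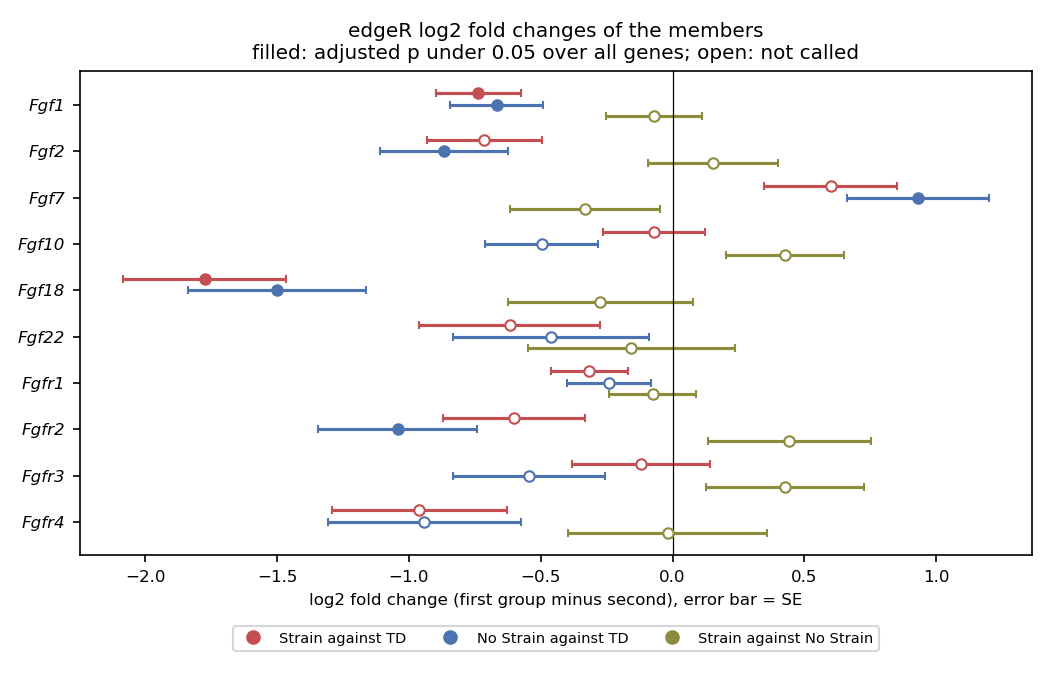
Log2 fold change of each of the 10 FGF genes in the 3 comparisons, with bars of 1 SE from edgeR's quasi-likelihood fit and filled points for an adjusted p under 0.05. Fgf18 lies farthest below 0 in both comparisons with TD (-1.77 and -1.50), Fgf7 is the only gene above 0 there, and no point is filled for Strain against No Strain.

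Around these ligands and receptors, 95 further genes of the FGF pathway were counted in 6 lists, of which 88 had enough reads. Strain against TD gave 1 higher and 11 lower, or 13.6% of those tested, and No Strain against TD gave 6 higher and 10 lower, or 18.2%. These shares lie near the 12.6% and 17.8% of all genes, but the directions were divided differently: in Strain 12.5% were lower and 1.14% higher, where all genes gave 6.41% and 6.20%. In No Strain 11.4% were lower and 6.82% higher, where all genes gave 8.40% and 9.35%. The medians were -0.03 and 0.00, and no test was run on the lists. Strain against No Strain gave 0 of 88. Among the calls for Strain against TD, 5 of 12 held in every fit that left out a library (Fgf11, Fgf13, Fgf9, Flrt2 and Klb). The count was 5 without Strain library 2 and 6 without TD library 3. For No Strain against TD, 4 of 16 held (Fgf11, Fgf13, Fgf9 and Klb), and the count was 8 without No Strain library 1 and 9 without No Strain library 3.

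Other ligands and the intracellular homologues were mostly scarce. The median log2 fold change of the 6 other secreted ligands tested was -1.29 in Strain and -0.77 in No Strain, with 2 of 6 lower in Strain and 1 lower and 1 higher in No Strain, against TD. Of the 4 intracellular homologues, 2 fell in Strain and 2 in No Strain. Fgf9, a secreted ligand of epithelial and mesenchymal exchange, was at 3.41 ± 0.663 CPM in TD (SD, n = 5), 1.40 ± 0.303 in Strain (SD, n = 4) and 1.13 ± 0.193 in No Strain (SD, n = 3). Its log2 fold change was -1.29 in Strain (adjusted p = 0.00568) and -1.59 in No Strain (adjusted p = 0.00262). Fgf11, an intracellular homologue that is not secreted, was at 9.69 ± 0.348, 4.72 ± 0.520 and 4.04 ± 0.311 CPM in the same order. Its values were -1.03 (adjusted p = 0.000996) and -1.26 (adjusted p = 0.000370). For these 2 genes the groups stood apart, with every TD library above every patch library.

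Fgf23, a hormone of phosphate balance made mainly in bone, rose in No Strain (log2 fold change 3.15, SE 0.731, adjusted p = 0.0156) from 0.678 ± 0.309 CPM in TD (SD, n = 5). Its 3 No Strain libraries held 10.9, 0.815 and 6.55 CPM, so 1 of them lay within the low range of film wounds, and without No Strain library 1 the value was 2.42 (adjusted p = 0.0741). Fgf13 fell in both comparisons (-1.18 and -1.39, adjusted p = 0.0137 and 0.00747). With the adipocyte list as a covariate its values were -0.31 (adjusted p = 0.394) and 0.13 (adjusted p = 0.861), and with the muscle list the value in Strain was -0.56 (adjusted p = 0.662). Fgf21, a liver hormone, fell in Strain (-1.38, adjusted p = 0.0262), which was lost without Strain library 2 (adjusted p = 0.0782) or 4 (0.0568). It was tested in only 9 of the 12 fits that left out a library. Its libraries held 7 to 14 counts in TD and 2 to 5 in Strain, where the mean of 0.157 CPM lay near the floor of 3 counts. Fgf13 and Fgf21 were named after their values were seen, as were the other called pathway genes beyond the 3 with the smallest p in each direction.

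Of 20 co-receptors and ligand carriers, 1 rose and 4 fell in Strain, and 0 rose and 5 fell in No Strain, relative to TD. Klb, the co-receptor for endocrine FGFs in fat and liver, fell by 1.58 on the log2 scale in Strain (adjusted p = 0.00768) and by 2.23 in No Strain (adjusted p = 0.00253). Its level was 4.15 ± 1.29 CPM in TD (SD, n = 5), 1.39 ± 0.367 in Strain (SD, n = 4) and 0.877 ± 0.133 in No Strain (SD, n = 3), next to the lower adipocyte markers of the patch groups. With the adipocyte list as a covariate the values were -0.65 (adjusted p = 0.276) and -0.68 (adjusted p = 0.529). Cd44, a hyaluronan receptor that can carry heparan sulfate, rose in Strain (0.57, adjusted p = 0.0318). TD held 354 ± 39.9 CPM of it (SD, n = 5), and Strain held 527 ± 128 CPM (SD, n = 4). That call was lost without any one of TD libraries 1, 2, 3 and 5 or Strain libraries 1, 2 and 4 (adjusted p from 0.0535 to 0.103). The adhesion proteins Flrt1 and Flrt2 and the decoy-like receptor Fgfrl1 fell in both comparisons, and the carrier Fgfbp3 fell in No Strain. Of these, the fall of Flrt2 in Strain was the only one that held whichever library was left out. Among the heparan sulfate enzymes, 0 of 16 were called in Strain and 1, the epimerase Glce, fell in No Strain (-0.53, adjusted p = 0.0104), a call that was lost without No Strain library 3.

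Signal relays and targets gave small changes in either direction. Of 24 relays, Ptpn11 fell in Strain (-0.20, adjusted p = 0.0274), and Braf, Map2k1 and Stat3 rose in No Strain. Braf, a kinase upstream of MAP kinase, went from 37.1 ± 1.25 CPM in TD (SD, n = 5) to 43.7 ± 1.27 in No Strain (SD, n = 3), a log2 fold change of 0.23 (adjusted p = 0.0183), which was lost without No Strain library 2 (adjusted p = 0.0642) and with scaling by library totals alone (0.17, adjusted p = 0.0611). Of 18 feedback inhibitors and target genes, Etv5 and Spry1 fell in Strain (-0.48 and -0.28, adjusted p = 0.0383 and 0.0456). In No Strain the MAP kinase phosphatases Dusp5 and Dusp6 rose (0.54 and 0.42, adjusted p = 0.0246 and 0.0341) and Spry1 fell (-0.29, adjusted p = 0.0451). Dusp5 was 17.4 ± 1.67 CPM in TD (SD, n = 5) and 25.3 ± 5.62 in No Strain (SD, n = 3), and it missed the threshold without No Strain library 2 (0.33, adjusted p = 0.0959). The calls of Etv5, Spry1, Dusp6, Ptpn11, Map2k1 and Stat3 were each lost in more than one fit that left out a library.

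**Figure D4:**
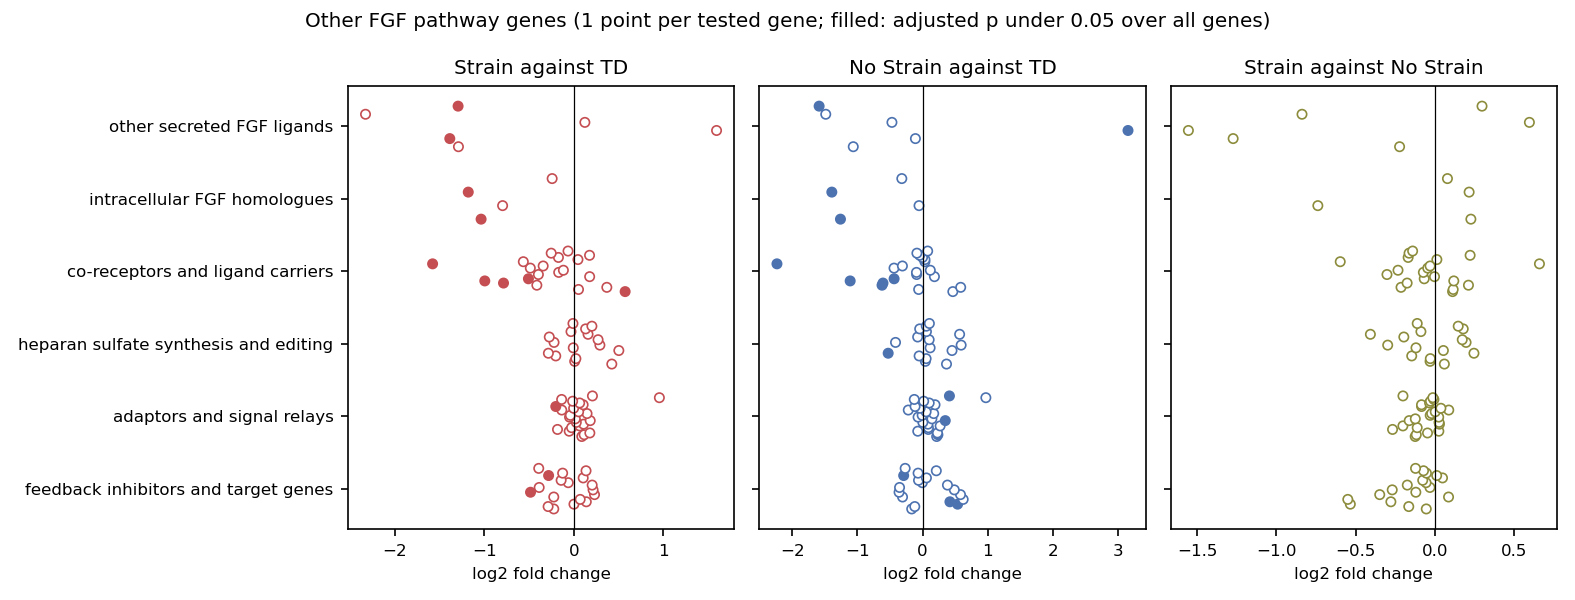
Log2 fold changes of the tested FGF pathway genes by list in the 3 comparisons, with filled points for an adjusted p under 0.05 and a separate scale in each panel. Most points of the relay and heparan sulfate lists sit close to 0, while Fgf9, Fgf11 and Klb lie below 0 in both comparisons with TD.

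Within groups, some of the 10 genes varied together and others in opposite directions. Correlations were taken over the 12 libraries on log2 CPM after subtracting each group's mean, over 45 pairs of genes, and they describe shared variation that depth and tissue make-up can also give. Fgfr2 went with Fgfr3 (r = 0.91) and with Fgfr4 (r = 0.85). Fgf2 went with Fgfr1 (r = 0.90). Between these pairs the sign turned: Fgfr1 against Fgfr3 gave r = -0.81, Fgf2 against Fgfr3 gave -0.77 and Fgf2 against Fgfr2 gave -0.72.

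The same deviations were set against the mean of each of 13 marker lists, 130 relations in all, and the list with the highest r was taken for each gene. Basal keratinocyte markers led for Fgfr2 (r = 0.86) and Fgfr3 (0.90). Each r was repeated without the 2 libraries in which that FGF gene lay farthest from its median, which gave 0.87 and 0.83. Differentiated epidermis led for Fgfr4 (0.83, then 0.74) and Fgf22 (0.74, then 0.59). The adipocyte list was also high for Fgfr2 (0.78), Fgfr3 (0.71) and Fgfr4 (0.73), and Fgf2 ran against it (-0.85). Fibroblast markers led for Fgfr1 (0.82, then 0.76) and Fgf2 (0.67, then 0.56), and neutrophil markers led for Fgf7 (0.78, then 0.67). On the repeat the leading list changed for Fgfr4, to basal keratinocyte markers (0.79), and for Fgf2, to neutrophil markers (0.80). The highest values of Fgf1 with muscle (0.73, then 0.27), Fgf10 with adipocytes (0.61, then -0.13) and Fgf18 with endothelium (0.61, then 0.21) fell the most, and another list then led for each. Rank correlations over all 12 libraries for these were 0.66, 0.32 and 0.59.

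**Figure D5:**
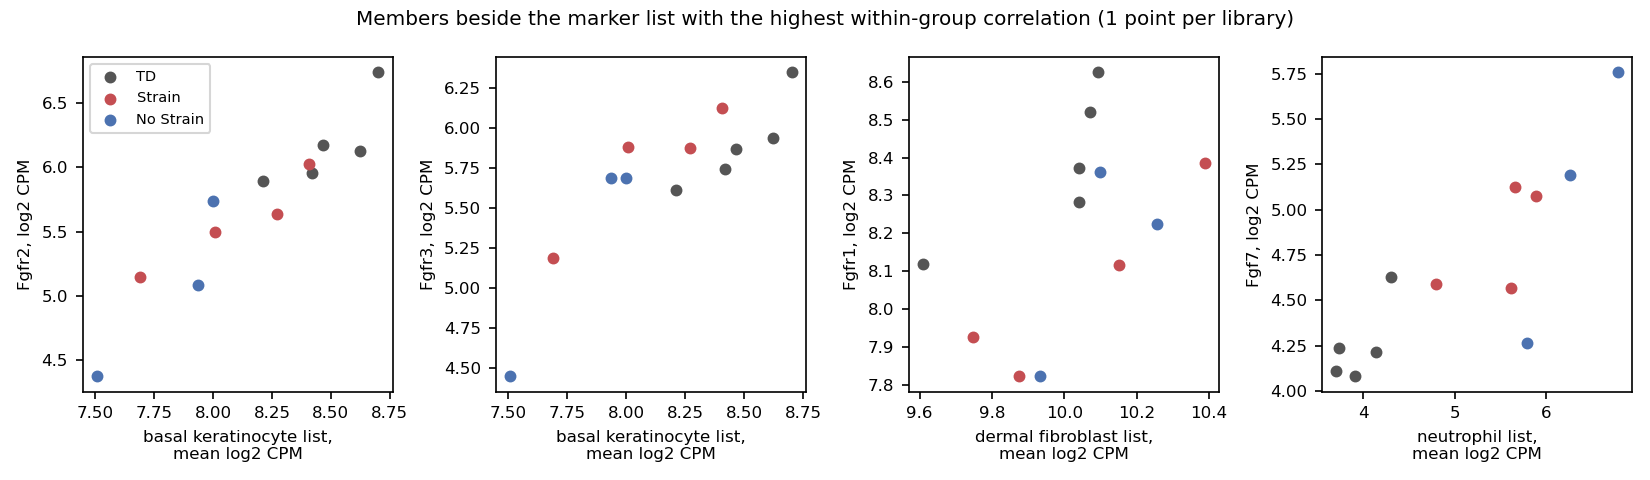
Log2 CPM of Fgfr2, Fgfr3, Fgfr1 and Fgf7 against the mean log2 CPM of the marker list with the highest within-group correlation, with 1 point per library colored by group. Group means are not subtracted in the panels. After subtracting each group's mean, r was 0.86, 0.90, 0.82 and 0.78.

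The 2 genes most like each member were searched among 12419 genes with a mean of at least 5 CPM, by the same within-group r over 12 libraries. They were Mycl and Tfap2b for Fgfr2 (both 0.98), Ly6g6e and Ephb6 for Fgfr3 (both 0.98) and Fzd3 and Axin2 for Fgfr4 (both 0.97). Nucb1 and Vasn were most like Fgfr1 (both 0.96), and Pttg1ip (0.97) and Rhob (0.96) most like Fgf2. For Fgf7 they were the neutrophil chemokine gene Cxcl5 (0.94) and the extracellular superoxide dismutase gene Sod3 (0.93). Fgf1 was most like Sumf2 (0.96) and Micu3 (0.92), Fgf10 most like Pde3b (0.96) and Prkar2b (0.94), Fgf18 most like Klhl3 (0.94) and Rilpl1 (0.90), and Fgf22 most like Ephb3 and Lce1i (both 0.92). The highest of so many correlations is large by selection. Without the 2 farthest libraries they ranged down to 0.65, for Fgf22 with Ephb3.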

How the data were processed

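Poly(A) RNA from 12 wounds was sequenced after fragmentation with an Illumina library kit that does not mark strand, per the labels' protocols. The authors deposited raw counts per Ensembl gene, 1 file per library. The submitters' processing notes name bcl2fastq 2.17, FastQC, cutadapt, STAR, featureCounts, DESeq2 and build GRCm38, without role or order. Annotation release, strand handling and the treatment of multi-mapping reads are not given in the sources used here. Of 54232 gene identifiers, 54165 matched a GENCODE M21 symbol, which also supplied exon lengths and coordinates on GRCm38.

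Groups follow the group label. Genes were kept by filterByExpr (minimum count 10, minimum total 15), scaled by TMM and tested in 1 quasi-likelihood fit of all 12 libraries with edgeR 4.0.16 (R 4.3.3). Adjusted p-values are Benjamini-Hochberg over 18618 genes, with a threshold of 0.05. SEs derive from the fold change and its F statistic. TMM-scaled totals give the CPM, and a prior count of 2 enters its log2. The fit was tested on simulated data. Alternatives were DESeq2 1.42.0 and its size factors, library totals, limma-voom (limma 3.58.1), other filters, fits of 2 groups only or without robust estimates, the title letter, muscle list or adipocyte list as covariate, and leaving out each library. The members and gene lists were chosen with earlier results of these data known. All members are named, with up to 3 higher and 3 lower pathway genes of smallest p per comparison and the 2 genes most like each member. Replicates of each group were compared pairwise (19 pairs), and with a chi-square of 9.53 to 75.0 per degree of freedom none agreed within sampling noise. Floors cover counting error only.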

Additional observations from a re-analysis of the deposited data

Results flagged for a closer look

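Among 20 sets of values in groups of 4 or more libraries, 1 held a library that stood apart, and chance alone gives about 1. Fgf7 in TD library 1 was at a log2 CPM of 4.63, against 4.24 for the nearest of the other 4. Its gap was 0.713 of the group's range, just above the critical 0.710. On the linear scale it held 24.6 CPM, where the other TD libraries held 16.8 to 18.8. The summed neutrophil markers of that library, at 1739 CPM, were also the highest in TD, where the next library held 703, but on mean log2 CPM they were at 4.31, against 4.14 in TD library 2. S100a8 and S100a9 weigh most in that sum, with highest TD values of 673 and 844 CPM. Both also stand in the wound-activated keratinocyte list, which was highest in the same library (5607 CPM, next 3678). Their part in the Fgf7 value was not tested.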

How the results depend on the processing

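Of 690 repeats of single-gene values for the 10 genes, 611 kept direction and side of the threshold, 37 lost a call, 10 gained one and 32 changed sign. Genes called for Strain against TD (2) numbered 4 with DESeq2, 1 with the title letter, 0 with the muscle list and 1 with the adipocyte list as covariate. For No Strain against TD (5) they numbered 2 with no filter, 2 with the title letter, 2 with muscle, 1 with adipocyte, and 2 to 5 on leaving out a library. For Strain against No Strain they numbered 0 in all 23 alternatives. With longest-transcript lengths, 5 of 10 genes kept their rank. Signs changed as follows. Strain against No Strain: Fgfr4 0.0250 with library totals; with muscle Fgf2 -0.22, Fgf18 0.12, Fgfr4 0.0753, Fgf1 0.30; with adipocyte Fgfr3 -0.0583, Fgfr2 -0.11, Fgfr1 0.19. Strain against TD: Fgfr3 0.0210 with the letter; Fgf10 0.44 with muscle; with adipocyte Fgfr3 0.57, Fgfr2 0.19, Fgf10 0.40. No Strain against TD with adipocyte: Fgfr3 0.63, Fgfr2 0.30, Fgf22 0.29, Fgfr4 0.57, Fgf10 0.28, Fgf13 0.13, Spry1 0.15, Fgfrl1 0.40. Leaving out a library gave, for Strain against No Strain, Fgf22 -0.43 to 0.13, Fgfr4 -0.38 to 0.40, Fgf1 -0.24 to 0.0354, Fgf7 -0.65 to 0.0623, Fgfr1 -0.23 to 0.0412, Fgf18 -0.53 to 0.0590 and Fgf2 -7.1e-05 to 0.33, and for Strain against TD, Fgfr3 -0.26 to 0.0392 and Fgf10 -0.20 to 0.0515. Apart from leaving out libraries, the cause was not tested. Pathway genes called for Strain against TD (12) numbered 18 with DESeq2, 6 with the letter, 3 with adipocyte and 0 with muscle, and for No Strain against TD (16) 10 with the letter, 9 with muscle and 3 with adipocyte. Over all genes, library totals in place of TMM moved the higher share of calls for No Strain against TD from 52.7% to 38.1%. With all genes, muscle left 2 of 2349 calls for Strain against TD and 1608 of 3305 for No Strain against TD, adipocyte 80 and 98, and the letter 798 and 2145. No paired analysis was run, because the groups share no title number and the labels do not say which wounds shared a mouse. Counts per library were 15 to 82 for Fgf22 and 61 to 156 for Fgf10, the lowest of the 10 genes at their upper end.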
